A study of Mus musculus with 9 samples.

Results

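The comparison set all 6 knockout arrays, 3 from E2A-/- mice and 3 from Lyl1-/- mice, as 1 group against the 3 arrays of wild-type (WT) control mice, which together are all 9 arrays of the series. The membership of an array came from its title alone. RNA came from bone marrow cells that lacked lineage markers and carried CD117 (Kit), SCA-1 and CD135 (Flt3), and was read on Affymetrix 3-prime expression arrays. Sex, age and strain of the mice, and the design of either mutant allele, are not given in the labels used here, and the series title places the arrays in a study of how Tal1 restrains lymphoid specification. WT 1 and WT 3 differed so little that they were averaged and counted as 1 sample, so the test compared n = 6 knockout arrays with n = 2 WT samples.

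E2A is the product of the Tcf3 gene, which encodes the E proteins E12 and E47. E proteins are basic helix-loop-helix (bHLH) transcription factors that bind the E-box, a short DNA motif, as pairs, and they drive the genes of early B and T lymphocyte development. Lyl1 is a bHLH factor expressed in blood cells and a close relative of Tal1. It binds DNA only when paired with an E protein, so the pair of mutants removes either partner of the same kind of dimer. The sorted population is a multipotent progenitor that can still enter the lymphoid and myeloid lineages. The question set for the comparison was whether changes shared by the mutants fall among bHLH genes or among genes known to vary between inbred mouse strains.

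Changes shared by all 6 knockout arrays were few and led by genes outside the bHLH network. A myotubularin family member (Mtmr9), the interferon-inducible Xaf1, the RNA helicase gene Mtrex, the interferon-induced Ifi44l and the chromatin protein gene Hmga2 fell 3.68-fold to 8.98-fold at their most changed probe sets. In all of these but Mtmr9 the knockout values lay below the array median, so the folds are limited by background and give no order of size. Trim12a and Trim34a, members of an antiviral TRIM gene cluster, rose 4.96-fold and 3.74-fold, and 1 probe set with no listed gene rose 12.1-fold. On the WT arrays these rising probe sets read below or near the array median, so their folds are limited by background too. Of 24195 probe sets tested, 78 passed an adjusted p of 0.05 in limma, a share of 0.322%. Of these 20 were higher in the knockouts (0.0827% of those tested) and 58 lower (0.24%). All 78 had the 6 knockout arrays beyond all 3 WT arrays. So did 1905 of the probe sets tested (7.87%), of which 661 were higher (2.73%) and 1244 lower (5.14%). A call asks for a difference that is large beside the spread, so this separation follows largely from the choice of the 78. An unadjusted p under 0.05 was found at 1974 probe sets (8.16%). The count of 78 fell to 23 without WT 2, 51 without Lyl1-/- 1 and 52 without Lyl1-/- 2.

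**Figure D1:**
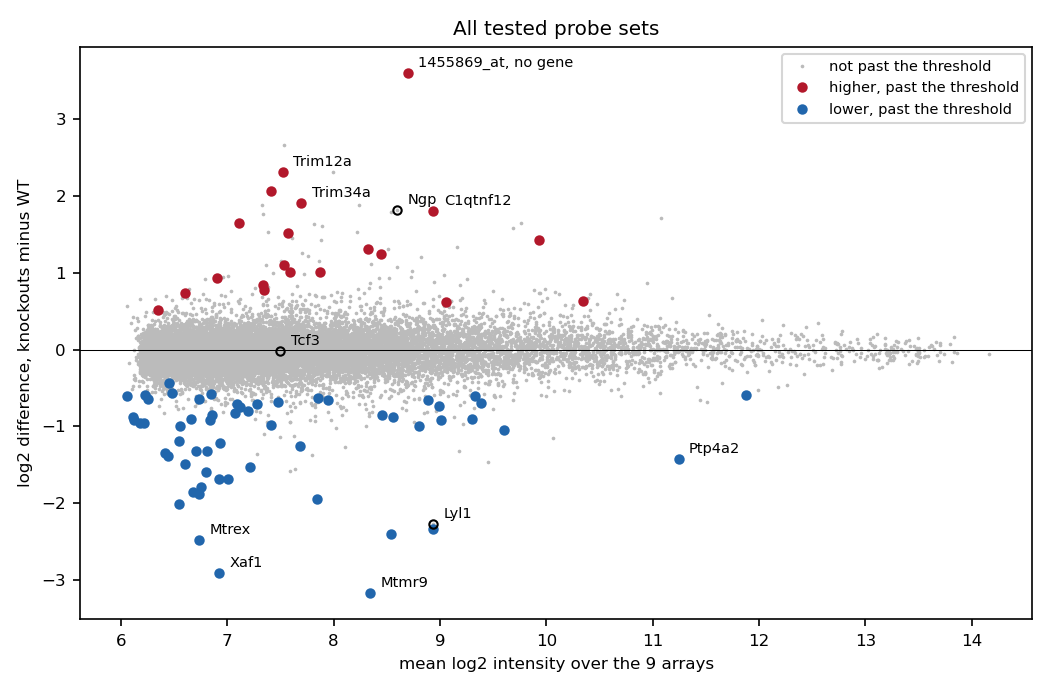
Each point is 1 of the 24195 tested probe sets. The x axis gives the mean log2 intensity over the 9 arrays and the y axis the log2 difference of the knockouts from WT. Filled circles passed an adjusted p of 0.05 in limma (20 higher, 58 lower), and open circles mark Lyl1, Tcf3 and the granulocyte gene Ngp, which did not. Filled circles are found at both dim and bright probe sets, with Ptp4a2 among the brightest.

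Several facts of the arrays bear on these counts. The actin 3-prime over 5-prime ratio, a sign of RNA integrity, was 10.6 on WT 2 and 10.1 on E2A-/- 2 against 2.85 to 4.23 elsewhere. The signal of Xist, which is expressed in females, was 1811 to 2787 on E2A-/- 2, Lyl1-/- 1 and Lyl1-/- 2 and 49.3 to 57.5 on the other 6 arrays, WT included. Of 15 markers of mature granulocytes and monocytes 9 were tested. Their summed intensity was 1773 to 2277 for WT, 1799.6, 16669 and 19453 for E2A-/- 1, 2 and 3, and 2091 to 3645 for Lyl1-/-. Kit and Flt3 of the sort gate passed the filter. So did Cd34, Cd48 and Ptprc, which were listed with them but are not sort markers named above. The summed intensity of these 5 genes was 4905 to 5751 for WT, 4023.5 to 5876.5 for E2A-/- and 4262 to 4496 for Lyl1-/-. All 5 were lower in sign in the knockouts, with a median of -0.31, and none passed the threshold or kept the groups apart. Ly6a, the SCA-1 gene, was not analysed here. In sorted bulk RNA, fewer cells of a type and less RNA per cell cannot be told apart. The lowest intensity of an array was 42.1 to 45.1, and how much of a dim value is background was not tested.

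Mtmr9, an inactive member of the myotubularin phosphoinositide phosphatases that pairs with active ones, was lower at all 3 of its tested probe sets. At 1434676_at the intensity was 1215, 1026 and 1224 on WT 1, 2 and 3, 218, 241 and 187 on the E2A-/- arrays, and 186, 214 and 231 on the Lyl1-/- arrays. No knockout array came near the WT arrays, and the mutants overlapped each other. The log2 difference was -2.40 (SE 0.12; adjusted p in limma 6.38e-05). The other probe sets, 1455058_at and 1452254_at, differed by -3.17 and -1.95 (limma adjusted p 0.00314 and 0.00164). Its relative Mtm1, an active phosphatase of the same family, read 165, 193 and 159 on the WT arrays and 329 to 500.3 on the knockout arrays at 1434278_at. The difference was 1.31 (SE 0.15, limma adjusted p 0.00808), but 1416934_at and 1454904_at of Mtm1 read -0.05 and 0.19. Without WT 2 the adjusted p of Mtm1 1434278_at was 0.0715; that fit, here and below, has 1 WT sample, which is assumed to vary like the knockout arrays. Over all fits its difference ran from 1.18 to 1.46. Mtmr9 and Mtm1 were the 2 of 11 tested myotubularin genes past the threshold, where 0.259% of all genes passed at their brightest probe set, and the median of the 11 was -0.05.

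Xaf1, which binds the apoptosis inhibitor XIAP, gave the smallest p. Probe set 1443621_at read 417, 519.9 and 438 on WT 1, 2 and 3. It read 62.4, 57.1 and 66.5 on the E2A-/- arrays and 66.3, 61.9 and 62.4 on the Lyl1-/- arrays. All 6 knockout arrays lay far below WT and below the array median (log2 difference -2.91, SE 0.10, limma adjusted p 2.55e-06). The second Xaf1 probe set, 1443698_at, went the other way. It ran from 147 to 150.2 on the WT arrays and from 210.5 to 281 on the knockout arrays, without overlap, a difference of 0.69 that missed the threshold (limma adjusted p 0.0729). The mean of both Xaf1 probe sets was -1.11.

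Mtrex encodes the helicase that feeds RNA to the nuclear exosome. Probe set 1447517_at of Mtrex read 349, 309 and 362 on the WT arrays, 57.2, 58.4 and 61.7 on the E2A-/- arrays and 60.3, 56.8 and 63.2 on the Lyl1-/- arrays. Again the knockout arrays lay below the array median and apart from WT (log2 difference -2.48, SE 0.09, limma adjusted p 2.55e-06). A second Mtrex probe set of similar brightness, 1426718_at, read 375 to 443 on the WT arrays and 319 to 486 on the knockout arrays. Its difference was 0.00, with overlapping groups.

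Ifi44l, an interferon-induced gene, was lower at both tested probe sets. At 1425917_at the WT arrays read 188, 334 and 170.3, the E2A-/- arrays 56.9, 65.5 and 65.0, and the Lyl1-/- arrays 60.3, 56.1 and 61.0. The highest WT value was that of WT 2 (log2 difference -2.01, SE 0.19, limma adjusted p 0.00272). Of 27 tested interferon response genes, Ifi44l was the 1 past the threshold at its brightest probe set, where 0.259% of all genes passed. Xaf1 passed at 1443621_at, which on average over the arrays is not its brightest. In that list 20 of the 27 were lower in sign and the median was -0.15, against 52.3% lower and a median of -0.01 over all 11954 genes tested. By array the list median was -0.36 to -0.20 on E2A-/-, -0.16 to -0.01 on Lyl1-/- and -0.03 to 0.03 on WT. Oasl2, which is induced by interferon, differed by -0.54 (limma adjusted p 0.17) and Rtp4, a receptor transport protein of the same response, by -0.68 (limma adjusted p 0.403).

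Hmga2, a chromatin protein of fetal and self-renewing stem cells, was lower at all 4 of its probe sets. At 1450781_at the WT arrays read 236, 282 and 230.4, the E2A-/- arrays 75.4, 72.8 and 62.4, and the Lyl1-/- arrays 70.7, 74.4 and 63.9. The knockout values fell in a narrow band far under every WT array (log2 difference -1.88, SE 0.11, limma adjusted p 0.000119). The other 3 differed by -1.32, -0.96 and -0.85. Ndn encodes necdin, an imprinted growth suppressor expressed in quiescent stem cells, and all 5 of its tested probe sets passed, with differences from -1.78 to -0.60. At 1455792_x_at the WT arrays read 219.7, 299 and 202, the E2A-/- arrays 94.1, 78.0 and 61.2, and the Lyl1-/- arrays 69.8, 59.2 and 81.1. Without WT 2 the adjusted p of this Ndn probe set was 0.103, while 1437853_x_at of Ndn kept its call with each array left out in turn.

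Cap1, Msi2 and Ptp4a2 were lower at 1 probe set each. Cap1, which recycles actin monomers, read 359, 216 and 334 on the WT arrays and 79 to 92.3 on the knockout arrays at 1417461_at (log2 difference -1.68, SE 0.15, limma adjusted p 0.00203). The other tested Cap1 probe set was dim and differed by 0.08. Msi2 encodes an RNA-binding protein of blood stem cells. Its 1443008_at read 289.5 to 312 on the WT arrays and 93.4 to 123 on the knockout arrays, a difference of -1.53 (SE 0.11, limma adjusted p 0.000494). The 6 other tested Msi2 probe sets ran from -0.70 to 1.20, and none passed the threshold. Ptp4a2, the phosphatase PRL-2, was the brightest of the named decreases. Its 1435129_at read 4441, 4823 and 4744 on the WT arrays and 1549.8 to 2002 on the knockout arrays (log2 difference -1.43, SE 0.11, limma adjusted p 0.000494), while 1420613_at and 1460707_at of Ptp4a2 differed by 0.03 and -0.16.

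The largest rise was at a probe set with no listed gene. Probe set 1455869_at read 74.1, 82.1 and 78.2 on the WT arrays, 907, 613 and 1056 on the E2A-/- arrays, and 1068, 840.1 and 1451 on the Lyl1-/- arrays. WT was at the level of the array median and every knockout array was far above it (log2 difference 3.60, SE 0.26, limma adjusted p 0.000494). Of the 78 calls, 17 had no listed gene and 4 had several. The other rises with no gene were 1431213_a_at (2.07), 1434280_at (1.64) and 1458706_at (0.93). The 5 largest falls with no gene were 1440862_at (-2.33), 1458719_at (-1.85), 1443394_at (-1.39), 1447360_at (-1.32) and 1439321_at (-1.26). Without WT 2 the call ended at 1431213_a_at, 1434280_at, 1458706_at, 1440862_at, 1447360_at and 1439321_at, with limma adjusted p from 0.168 to 0.289. The call at 1431213_a_at also ended without E2A-/- 1 or 3 or Lyl1-/- 1 or 2, that at 1434280_at without Lyl1-/- 2, that at 1458706_at without Lyl1-/- 1, and that at 1439321_at without Lyl1-/- 2 or 3.

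Trim12a read 62.9, 69.1 and 55.6 on the WT arrays, 305, 194 and 331 on the E2A-/- arrays, and 397, 341 and 380.4 on the Lyl1-/- arrays. WT stayed below the array median and all knockout arrays were above it (log2 difference 2.31, SE 0.24, limma adjusted p 0.00363, and 0.0575 without WT 2). Trim34a, 4 places away in the RefSeq gene order, read 88.3, 78.6 and 96.7 on the WT arrays and 283 to 404 on the knockout arrays at 1424857_a_at, a difference of 1.90 (SE 0.14, limma adjusted p 0.000494). Its second probe set, 1426093_at, differed by -0.29, and the mean of both Trim34a probe sets was 0.81. Near-identical copies fill this TRIM cluster, so RNA of another member on the probes of 1 gene cannot be told apart here.

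C1qtnf12, the gene of the secreted hormone adipolin, read 221, 199 and 229.6 on the WT arrays, 965, 861 and 906 on the E2A-/- arrays, and 691, 606 and 515 on the Lyl1-/- arrays at 1439422_a_at. The groups did not overlap, and the E2A-/- arrays were all above the Lyl1-/- arrays (pooled log2 difference 1.80, SE 0.23, limma adjusted p 0.0127, and 0.232 without WT 2). Over all fits the difference of C1qtnf12 ran from 1.67 to 1.95. The test between the mutants missed the threshold (limma adjusted p 0.282). Zfp945, a zinc finger gene, rose by 1.52 at 1437128_a_at (SE 0.11, limma adjusted p 0.000494), with 83 to 112 on the WT arrays and 245 to 297 on the knockout arrays. Its 1437127_at and 1441792_at read -0.40 and 0.19. Erdr1, named for erythroid differentiation, read 648, 377 and 629 on the WT arrays and 977 to 1638 on the knockout arrays (1.42, SE 0.22, limma adjusted p 0.0378), the lowest WT value being that of WT 2. Its call ended without any 1 of WT 2, the 3 E2A-/- arrays, Lyl1-/- 1 and Lyl1-/- 2, with limma adjusted p up to 0.499.

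The remaining named changes were smaller or dimmer. Among the rises were Zfp593 (1.24), Stxbp4 (1.10), the sulfhydryl oxidase gene Gfer (1.01), the actin-bundling L-plastin gene Lcp1 (1.01) and the Golgi complex subunit Cog1 (0.84). Without WT 2 each of these 5 lost its call, with limma adjusted p from 0.0715 to 0.288. Gfer also lost it without any E2A-/- array or Lyl1-/- 1, Lcp1 without Lyl1-/- 1 or 3, and Cog1 without E2A-/- 3 or Lyl1-/- 2. The other tested probe set of Gfer differed by -0.61 and that of Zfp593 by 0.16. Of the 4 other Cog1 probe sets, 0 rose by at least 0.5 times as much, and the lowest differed by -0.42. For Stxbp4, 2 of 3 others did rise that much. BC018473 fell by 1.48 and kept its call with each array left out in turn. Lcp1 shows how far apart probe sets of a gene can read: 1448160_at was 137 to 159 on the WT arrays and 253 to 377 on the knockout arrays, while 1415983_at, a bright probe set of the same gene, was 1914 to 2024 and 1796 to 2174, with a difference of -0.03.

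**Figure D2:**
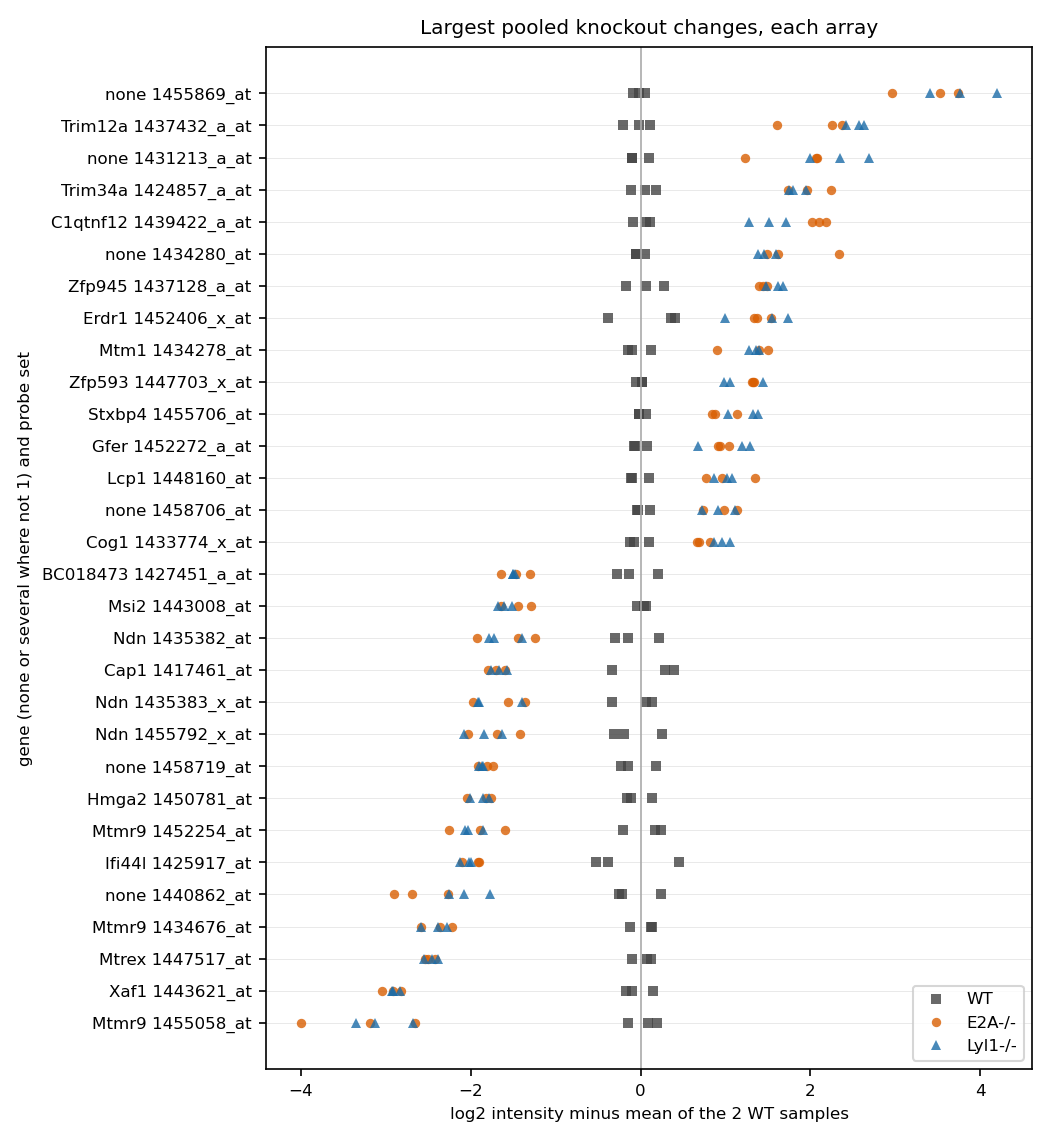
The 15 largest rises and 15 largest falls past the threshold are shown, 1 row a probe set. The x axis is log2 intensity minus the mean of the 2 WT samples; squares are the 3 WT arrays, circles the 3 E2A-/- arrays and triangles the 3 Lyl1-/- arrays. In every row the 6 knockout arrays lie on one side of the 3 WT arrays. C1qtnf12 is a row in which the E2A-/- circles lie apart from the Lyl1-/- triangles.

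The pooled changes were also compared between the mutants, at probe sets whose choice favours a similar size in both. At 0 of the 78 probe sets did E2A-/- and Lyl1-/- differ by adjusted p in limma, against 12 of all 24195 tested (0.0496%). By unadjusted p under 0.05 they differed at 6 of the 78, and at 1842 of all tested (7.61%). A missed threshold does not show that the mutants are alike, and a pooled fit favours probe sets on which they are. The median range over the 6 knockout arrays was 0.31 on the log2 scale at the 78 and 0.41 at all tested, a gap that the choice of the 78 by a small spread also fixes. A stricter description asked that each knockout array lie at least 0.5 beyond the nearest WT array on the log2 scale. This held at 68 tested probe sets (0.281%), 22 higher and 46 lower, of which 57 were among the 78. Mid1, an E3 ubiquitin ligase gene, was 1 of those outside them. It read 72.4, 71.3 and 72.0 on the WT arrays and 159 to 467 on the knockout arrays (log2 difference 1.76, limma adjusted p 0.0831).

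Of the 78, 15 falls had all 3 WT arrays above the array median and no knockout array above it, and 5 rises had the reverse. For these 20 probe sets 1 side of the comparison is dim and the size of the change is limited by background. The count leaves out dim probe sets with only part of the WT arrays above the median, such as 1455869_at and 1424857_a_at of Trim34a. All 9 arrays lay above the median at 44 of the 78.

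Probe sets of a gene read different stretches of its transcripts, and at most of the genes they did not move together. The 57 called probe sets with 1 gene came from 44 genes, which are 0.368% of the 11954 genes tested. Of these, 11 had 1 tested probe set and 33 had several. In 11 of the 33 at least 1 other probe set moved the same way by at least 0.5 times as much, in 22 none did, and in 15 another probe set had the opposite sign. More than 1 probe set passed in Mtmr9, Ndn, Hmga2, Ifi44l, Glo1 and Ldhb, the last of which was picked out for this after its values were seen. Without WT 2 more than 1 of these calls held in Mtmr9 alone, 1 each in Ndn, Hmga2 and Ifi44l, and 0 in Glo1 and Ldhb.

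**Figure D3:**
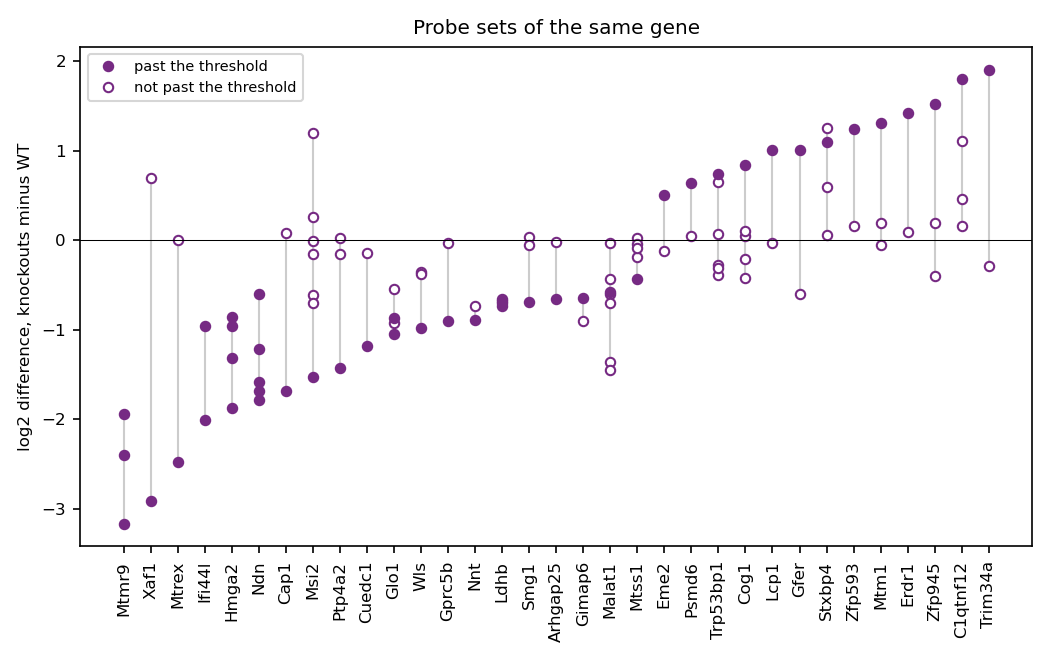
For the 33 genes with several tested probe sets, each circle is 1 probe set and the y axis its log2 difference of the knockouts from WT. Filled circles passed the threshold. Mtmr9, Ifi44l, Hmga2 and Ndn have all circles filled and below 0, while Xaf1, Msi2, Gfer and Trim34a span 0.

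Promoters are shown for the genes in which more than 1 probe set fell, since those falls do not rest on a single probe set. The 250 bases before the start of 5 of these 6 genes follow, from RefSeq (GRCm38.p6), read 5′ to 3′ on the strand of the gene, with every E-box (CANNTG, the core letters bound by E protein dimers) in capitals. The table held no promoter for Mtmr9.
Hmga2, chr10:120476470-120476719, minus strand: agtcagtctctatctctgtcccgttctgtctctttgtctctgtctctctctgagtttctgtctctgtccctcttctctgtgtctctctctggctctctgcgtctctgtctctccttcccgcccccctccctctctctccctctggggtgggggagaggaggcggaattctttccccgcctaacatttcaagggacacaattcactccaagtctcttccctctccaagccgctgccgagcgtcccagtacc
Ndn, chr7:62348027-62348276, plus strand: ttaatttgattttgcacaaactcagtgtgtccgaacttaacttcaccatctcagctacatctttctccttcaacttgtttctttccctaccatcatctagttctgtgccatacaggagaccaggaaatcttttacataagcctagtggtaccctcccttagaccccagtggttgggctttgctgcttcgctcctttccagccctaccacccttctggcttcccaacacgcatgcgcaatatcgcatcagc
Ifi44l, chr3:151762892-151763141, minus strand: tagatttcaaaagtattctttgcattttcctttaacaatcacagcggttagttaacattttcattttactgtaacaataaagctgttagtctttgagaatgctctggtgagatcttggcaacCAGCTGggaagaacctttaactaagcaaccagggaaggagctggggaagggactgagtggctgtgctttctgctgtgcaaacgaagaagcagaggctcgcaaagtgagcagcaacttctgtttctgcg
Glo1, chr17:30612660-30612909, minus strand: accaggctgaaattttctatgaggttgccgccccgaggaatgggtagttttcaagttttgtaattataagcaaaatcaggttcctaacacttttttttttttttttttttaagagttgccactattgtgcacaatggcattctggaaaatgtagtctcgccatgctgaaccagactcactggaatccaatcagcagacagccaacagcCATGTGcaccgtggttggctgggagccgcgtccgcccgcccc
Ldhb, chr6:142507958-142508207, minus strand: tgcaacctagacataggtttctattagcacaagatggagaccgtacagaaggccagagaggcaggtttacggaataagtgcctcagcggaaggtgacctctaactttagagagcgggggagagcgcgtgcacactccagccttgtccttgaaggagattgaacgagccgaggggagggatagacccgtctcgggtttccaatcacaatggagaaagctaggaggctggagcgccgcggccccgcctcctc
The windows of Hmga2, Ndn and Ldhb held no CANNTG, that of Ifi44l held 1 (CAGCTG) and that of Glo1 held 1 (CATGTG).

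E-box letters were counted on both strands in windows of 250 bases before to 50 after the start. CANNTG stood in 29 of 47 promoters of the called genes (61.7%), against 64.5% of the promoters of all genes tested and 72.3% of all 32851 promoters of the table. Of the 44 genes 37 had a promoter there. The more specific CAGCTG stood in 21.3% of the called genes' promoters against 15.6% of those tested, CAGGTG in 17% against 18.5%, and CATCTG in 17% against 11.7%. The last 3 motifs are all contained in CANNTG. These shares describe letters in a window and were not tested.

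The bHLH genes were read next, starting with the targeted ones. Lyl1 was read by 1419120_at at 1429, 1352 and 1443 on the WT arrays, 1222, 825 and 900.3 on the E2A-/- arrays, and 89.6, 79.2 and 92.0 on the Lyl1-/- arrays. The Lyl1-/- arrays were far below WT, though still just above their array medians, and the E2A-/- arrays were below every WT array. Since the mutants differ so much here, the pooled difference of -2.27 had an SE of 1.15 and missed the threshold (limma adjusted p 0.691); the separate differences were -0.53 in E2A-/- and -4.01 in Lyl1-/-. Tcf3, the gene of E2A, read 205, 164 and 195 on the WT arrays, 172, 193 and 121 on the E2A-/- arrays, and 198, 192 and 208 on the Lyl1-/- arrays at 1426297_at. All groups overlapped, the pooled difference was -0.02, and 1427764_a_at of Tcf3 gave 0.00. The labels do not say which part of Tcf3 was deleted, so Tcf3 does not check the E2A-/- label.

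Among 22 tested genes of E proteins, their class II partners, Id inhibitors and cofactors, 16 were lower in sign with a median of -0.14, against 52.3% lower and -0.01 over all genes. None of the 22 passed the adjusted threshold in limma, where 31 of all 11954 genes did at the brightest probe set (0.259%). An unadjusted p under 0.05 was found for 6 of the 22, all lower, against 8.06% of all genes. In 6 the groups did not overlap, against 7.6% of all genes. With all 9 arrays as separate samples, with 3 genotypes in the fit, or with a replicate block, 1 of the 22 passed. These fits called 259, 85 and 146 of the 24195 probe sets, against 78 in the main fit. With 3 genotypes in the fit, a pooled call can come from a large difference in 1 mutant alone.

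The 6 lower at unadjusted p were cofactors and other transcription factors. None of them was an E protein, a class II bHLH factor or an Id gene. Erg, an ETS factor of stem cells, read 618, 584 and 554 on the WT arrays, 474, 376 and 353 on the E2A-/- arrays and 387, 423 and 434 on the Lyl1-/- arrays. The groups did not overlap (log2 difference -0.53, SE 0.12, limma adjusted p 0.161). The corepressor gene Cbfa2t3 (Eto2) differed by -0.53, its relative Cbfa2t2 by -0.33, the LIM complex cofactor Ssbp2 by -0.50, the progenitor factor Myb by -0.31 and the zinc finger factor Gata2 by -0.38. Their adjusted p in limma ran from 0.291 to 0.599. A second Erg probe set, 1425370_a_at, read 0.31.

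The other 16 were nearer to WT or wide in spread. Among E proteins, Tcf4 (E2-2) differed by -0.36, with -0.10 in E2A-/- and -0.62 in Lyl1-/-, and Tcf12 (HEB) by -0.02. Among the bridging proteins and their partners, Lmo2 differed by -0.14, Lmo1 by 0.02, Lmo4 by 0.23, Ldb1 by 0.05 and Ssbp3 by 0.00. Tal1, the relative of Lyl1, differed by 0.06. The Id genes, whose products sequester E proteins, gave 0.10 for Id1 and -0.13 for Id2, while Id3, Id4 and Tal2 did not pass the filter. The factors Runx1, Gata3 and Fli1 gave -0.30, -0.14 and -0.02. Gfi1b gave -0.12 pooled, from -0.71 in E2A-/- and 0.47 in Lyl1-/-.

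Genes that E proteins are reported to switch on in lymphoid cells were mostly lower in sign, and 0 of the 13 tested passed by adjusted p in limma. The median was -0.25 and 11 of the 13 were lower in sign, against -0.01 and 52.3% over all genes. The lower level was not shared by all 6 arrays: the summed intensity of the 13 was 6858 to 7090 for WT, 4231 to 4610 for E2A-/-, 5217 and 5236 for Lyl1-/- 1 and 2, and 7326 for Lyl1-/- 3. In 0 of the 13 did the groups stay apart, against 7.6% of all genes. An unadjusted p under 0.05 was found for 4, against 8.06%. These were Notch1, the receptor that starts T lineage choice (-0.54), the B cell adaptor Blnk (-0.48), the IL-7 receptor gene Il7r (-0.42) and Foxo1 (-0.38), with limma adjusted p from 0.457 to 0.597. Of 20 tested lymphoid priming genes, which include Notch1, Il7r, Dntt and Ccr9 of the former list, 15 were lower in sign with a median of -0.21. On Lyl1-/- 3 the median of these 20 was 0.01, against -0.40 to -0.09 on the other knockout arrays. In limma 0 passed by adjusted p and 5 had an unadjusted p under 0.05, against 8.06% of all genes. Cd52, a lymphocyte surface glycoprotein, went up in sign. It read 687, 905 and 752 on the WT arrays and 1125 to 1623 on the knockout arrays, without overlap (0.72, limma adjusted p 0.174). In the list of other bHLH factors, such as Myc and Srebf1, the median was -0.05 and 0 of 23 passed, with 1 at unadjusted p under 0.05 (Srebf1, -0.26).

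Of 21 tested stem cell genes 18 were lower in sign, with a median of -0.30, against 52.3% and -0.01 over all genes. Of these Ndn and the orphan receptor gene Gprc5b passed, where 0.259% of all genes did. An unadjusted p under 0.05 was found for 8, against 8.06%, and the groups did not overlap in 6, against 7.6%. Gprc5b read 129.5 to 183 on the WT arrays and 77.4 to 90.3 on the knockout arrays (log2 difference -0.90, limma adjusted p 0.0149, and 0.169 without WT 2). Its other tested probe set, 1424613_at, differed by -0.03. Mecom and Meis1, transcription factors of self-renewal, differed by -0.64 and -0.62 with no overlap between the groups (limma adjusted p 0.183 and 0.337). Among genes linked to Lyl1 and Tal1 in stem and erythroid cells the median was -0.06, with 0 of 13 past the threshold.

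Genes with known variants between inbred mouse strains held more calls. Of 62 such genes listed, 36 were on the array and 30 were tested. Past the threshold were 7 genes, 3 higher (Trim12a, Trim34a and Erdr1) and 4 lower (Glo1, Nnt, Gbp2b and Naip5), against 0.259% of all genes. An unadjusted p under 0.05 was found for 16 of the 30, against 8.06%, and the groups did not overlap in 18, against 7.6%. The median was -0.04, since the list moved both ways. Glo1, Nnt, Trim12a, Trim34a and Mid1 were already known to differ in these arrays when the list was written, so the list is not independent evidence. Without WT 2 the count fell from 7 to 1 and it ranged up to 10 with all 9 arrays as separate samples. It was 5 without E2A-/- 1 or 2, 4 without E2A-/- 3, Lyl1-/- 1 or Lyl1-/- 2, and 6 without Lyl1-/- 3.

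Glo1 encodes glyoxalase 1 and differs in copy number between strains. It was read at 1314, 1229 and 1259.8 on the WT arrays, 679, 682 and 548 on the E2A-/- arrays, and 569.8, 616 and 559 on the Lyl1-/- arrays. All knockout arrays lay below all WT arrays (log2 difference -1.05, SE 0.11, limma adjusted p 0.00363, and 0.0715 without WT 2), and over all fits the difference ran from -1.12 to -1.02. Its 3 other probe sets differed by -0.92, -0.87 and -0.55. Nnt, the mitochondrial transhydrogenase that a common C57BL/6J deletion inactivates, read 909, 1044 and 874 on the WT arrays, 469, 547 and 569.9 on the E2A-/- arrays, and 555, 480.2 and 495 on the Lyl1-/- arrays. The knockout arrays were again all lower, but well above the array median (-0.90, SE 0.11, limma adjusted p 0.00868, and 0.193 without WT 2), with a range from -1.01 to -0.78 over all fits. The other Nnt probe set, 1416105_at, differed by -0.74.

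Gbp2b, an interferon-inducible GTPase gene, ran from 87.1 to 89.5 on the WT arrays and from 52.8 to 62.2 on the knockout arrays (-0.60, limma adjusted p 0.0259). Naip5, the flagellin sensor behind strain differences in Legionella resistance, ran from 173 to 207 and from 107 to 134 (-0.71, limma adjusted p 0.0369). Without WT 2 both calls ended, with limma adjusted p of 0.343 and 0.606. That of Gbp2b also ended without any E2A-/- array or Lyl1-/- 1 or 2, and that of Naip5 without E2A-/- 2 or 3 or any Lyl1-/- array. Of the TRIM cluster, Trim5 and Trim30d differed by 0.54 and 0.49, Trim12c by -0.38 and Trim30a by 0.24, with limma adjusted p from 0.117 to 0.799. Trim5, Trim30d and Trim12c did not overlap between the groups. A second Trim30a probe set, 1451860_a_at, read -0.58.

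The rest of the strain list was closer to WT. Casp4 differed by 0.41, Ide by 0.45 and Thy1 by 0.33, with no overlap, and Pttg1, Naip2 and Mx1 by -0.31, -0.36 and -0.22, also with no overlap. Their limma adjusted p ran from 0.244 to 0.742. The histocompatibility genes H2-K1, H2-D1 and H2-Ea gave 0.18, -0.10 and -0.01, with overlapping groups. The remaining 9 genes lay between -0.35 and 0.07: Mmrn1 (-0.35), Cd72 (-0.25), Alad (-0.20), Mx2 (-0.17, with no overlap), Ptprc (-0.15), Fgfbp3 (-0.08), Kcnj9 (0.00), Btaf1 (0.06) and Apobec3 (0.07).

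**Figure D4:**
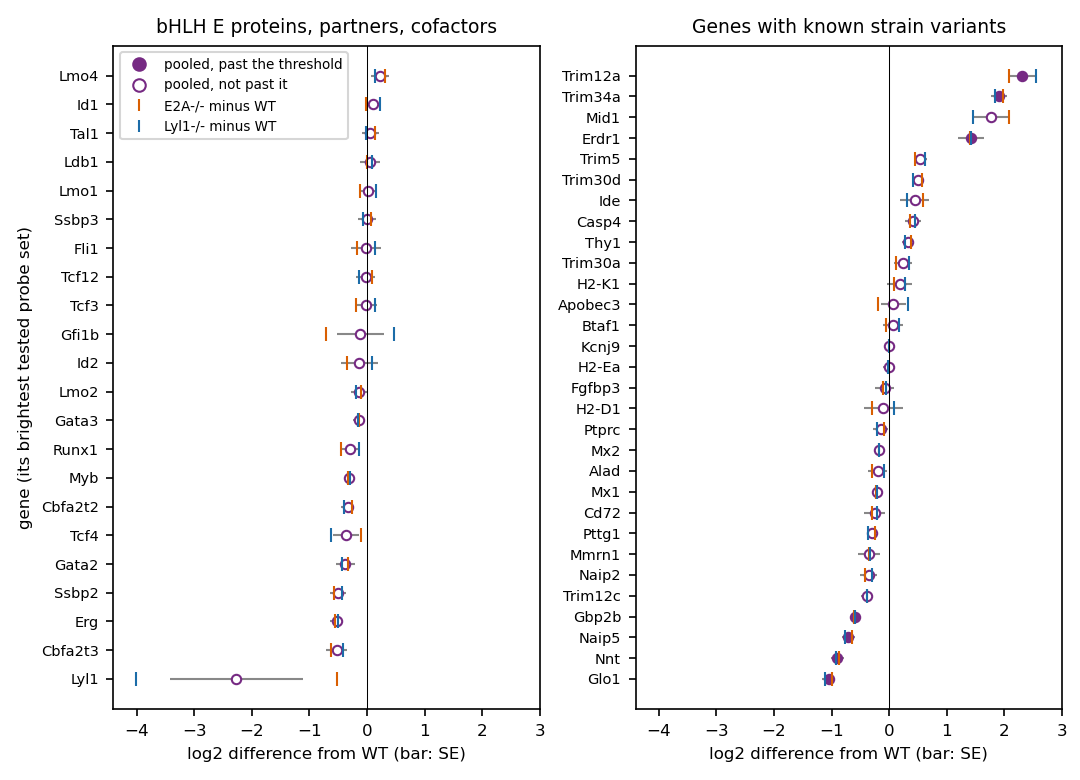
Left, 22 tested genes of bHLH E proteins, partners and cofactors; right, 30 tested genes with known strain variants, each at its brightest tested probe set. The x axis is the log2 difference from WT: circles are the pooled knockouts with a bar of 1 SE, filled where the limma adjusted p was under 0.05, and ticks are each mutant alone. No circle is filled on the left and 7 are filled on the right, 3 above 0 and 4 below. Of the filled genes, Trim12a, Trim34a, Glo1 and Nnt were already known to differ in these arrays when the list was written.

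Called genes that lie close together on a chromosome were also counted, since neighbouring genes are inherited together. By the RefSeq gene order, 6 of the 44 called genes (13.6%) lay within 10 annotated genes of another called gene, and 269 of 11937 placed tested genes (2.25%) lay within 10 of a called gene. The pairs were Trim12a with Trim34a, Cuedc1 with Msi2 and Trp53bp1 with Zscan29, the last pair named after its values were seen. Cuedc1 and Msi2 both fell at a single probe set (-1.19 and -1.53), whereas Trp53bp1 rose (0.73) and Zscan29 fell (-0.80). Within 50 genes, a window added later, the counts were 12 of 44 (27.3%) and 8.21%. None of these pairs lay beside a targeted gene. On the chromosome of Lyl1, 0 of 636 tested genes were called, against 44 of all 11954 genes tested (0.368%). On that of Tcf3, 2 of 564 were called, Adat2 and Hmga2 (0.355%), which is near the share over all genes. Neither lay within 50 genes of Tcf3. The part of strain background, sex and RNA quality in the shared changes was not tested beyond the values given here.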

How the data were processed

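Gene expression was measured on 9 Affymetrix arrays. The deposited values are linear intensities, 1 per probe set and array; the authors made them with RMA and the oligo package, per the submitters' processing notes, with no version given. When sorted, the 9 columns are almost equal, as after quantile normalization. log2 was taken with no pseudocount.

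Of 45101 probe sets, 64 controls were left out. The platform annotation gave 1 gene for 34945, several for 932 and none for 9160. Probe sets above their array's median on at least 3 arrays were tested (24195, of which 3228 had no gene and 580 several); a gene in a list was read by its brightest tested probe set. The RefSeq gene table (GRCm38.p6) served for names and gene order.

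WT 1 and WT 3 had a robust spread of 0.0827 at bright probe sets, against 0.193 to 0.375 in the other pairs, with 0 probe sets beyond 2-fold against 6 to 371. They were averaged. Knockouts and WT were compared in limma 3.58.1 under R 4.3.3, using lmFit then eBayes (6 residual degrees of freedom); a fit with 3 genotypes gave the differences of each mutant. Adjusted p-values are Benjamini-Hochberg over all 24195 probe sets, with a threshold of 0.05. The labels call the samples biological replicates, and the number of arrays limits the precision. In simulated data for this comparison (24195 probe sets, 50 changed at each size), changes of 0.5, 1, 2 and 3 on the log2 scale were recovered in 38%, 96%, 100% and 100% of cases, with 12 false calls among 179.

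The comparison, the gene lists and the naming rule were chosen with earlier results of these data known. Named by rule were the 15 largest rises and 15 largest falls past the threshold with the other probe sets of their genes, up to 5 unlisted probe sets a direction, all tested members of the bHLH and strain lists, and up to 4 members of smallest p of other lists; others were chosen after their values were seen. Alternatives covered scaling, filters, probe sets per gene, WT 1 and 3 as separate samples, the variance model, covariates and samples left out.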

Additional observations from a re-analysis of the deposited data

Results flagged for a closer look

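The 101 probe sets examined were the 78 past the threshold and those of the tested E proteins, partners, Id inhibitors and cofactors. In each, every knockout array was set against the other 5. In 8, the gap of an array to its nearest other array exceeded Dixon's critical share of the range for 6 samples. Chance flags about 1 group in 20. At 1434280_at, with no listed gene, E2A-/- 1 read 328 against 169 to 199 on the other knockout arrays (share 0.755). For Trim12a, E2A-/- 2 was low at 194 against 305 to 397 (0.633), still above the 55.6 to 69.1 of WT. For Mtm1 (1434278_at), E2A-/- 3 was low at 329 against 429 to 500.3 (0.632). For Cuedc1, E2A-/- 1 was low at 62.2 against 69.5 to 73.6 (0.657).

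Among genes of the list of bHLH factors and cofactors that did not pass, Id2 read 181 on Lyl1-/- 3 against 66.7 to 82.7 on the other knockout arrays (0.785). Ssbp3 read 256 on E2A-/- 2 against 185 to 197 (0.811). Myb read 1760.3 on E2A-/- 2 against 1969 to 2093 (0.647). Tcf3 at 1426297_at read 121 on E2A-/- 3 against 172 to 208 (0.648).

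Lyl1 differed between the mutants, by 3.48 on the log2 scale for E2A-/- minus Lyl1-/- in limma. At Gfi1b all E2A-/- arrays lay below and all Lyl1-/- arrays above the WT mean, a difference of -1.178 that missed the threshold (limma adjusted p 0.0579). At the dim Tcf3 probe set 1427764_a_at the arrays lay the same way, with a difference of -0.237 (limma adjusted p 0.636).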

How the results depend on the processing

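The 78 calls (20 higher, 58 lower) came to 28 (9 and 19) with 1 probe set a gene, 27 (6 and 21) after averaging probe sets by gene, 259 (85 and 174) with 9 separate arrays, 109 (34 and 75) with array weights, 44 (12 and 32) with sex and 55 (12 and 43) with the actin ratio as a covariate, 48 (6 and 42) without WT 1 and 3, 50 (14 and 36) without E2A-/- 2 and 3, 23 (9 and 14) without WT 2 and E2A-/- 2, and 12 (5 and 7) on the arrays without Xist signal. In each of these every call had all its knockout arrays beyond the WT arrays, which the choice by a large difference and small spread favours. Replicate numbers did not pair the arrays, as same-numbered arrays correlated at -0.145 to 0.239 and 3 of 9 pairs were over 0.1; with the number as a replicate block on 9 arrays the count was 146 (49 and 97), 145 of them beyond WT. With each array left out in turn the count was 23 to 78 (7 to 23 higher, 16 to 57 lower), lowest without WT 2; 19 of the 78 were called in all of these, and 10 in all 25 fits that apply to a probe set. Genes with agreeing probe sets were 33.3%, and 16.7% without WT 2 and E2A-/- 2 (21.4% to 40.9% leaving arrays out); genes with a called neighbour 13.6%, 7.14% with 1 probe set a gene, 7.41% after averaging, and 36% with the sex covariate (13.3% to 20.7%); promoters with an E-box 61.7%, and 42.9% on the arrays without Xist signal (56.2% to 67.5%). Averaging the probe sets of a gene turned the sign of Trim34a 1426093_at to 0.81 and of Xaf1 1443698_at to -1.11, since the mean includes the other probe set. For the changed counts the cause was not tested, apart from fewer genes or samples where these were removed. With 2 WT samples, and dim knockout values, small and dim differences could be missed.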

Other observations

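Genes of granulocyte and monocyte progenitors were mostly higher in sign, 19 of 23 tested with a median of 0.41, where 5706 of all 11954 genes were higher in sign. The rise was not shared by every knockout array: the list median was -0.01 on Lyl1-/- 3, against 0.26 to 0.63 on the others. By adjusted p in limma 0 passed, while 6 had an unadjusted p under 0.05, against 8.06% of all genes. The acute phase protein gene Hp ran from 105.5 to 107 in WT, 298 to 665 in E2A-/- and 114 to 371 in Lyl1-/- (log2 difference 1.64, limma adjusted p 0.383). The neutrophil elastase gene Elane differed by 1.53 with overlapping groups. All 9 tested markers of mature granulocytes and monocytes were higher in sign (median 1.33), and their summed level was high on E2A-/- 2 and 3; its part in the progenitor values was not tested.

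Cell cycle genes stayed closer to WT in the pooled values. The medians were 0.05 over 23 S phase genes, 0.04 over 19 G2 and M phase genes and 0.15 over 12 CDK inhibitor and quiescence genes. In limma 0 were past the adjusted threshold, and 2, 2 and 1 had an unadjusted p under 0.05, against 8.06% of all genes. By array the median of the CDK inhibitor and quiescence list was 0.16 to 0.29 on E2A-/-, -0.04 to 0.05 on Lyl1-/- and -0.05 to 0.04 on WT. Cdkn1a, the p21 inhibitor, ran from 115 to 119 in WT, 145 to 151 in E2A-/- and 192 to 272 in Lyl1-/-, a pooled difference of 0.68 (limma adjusted p 0.498).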
